A study of Mus musculus with 12 samples.

Results

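The genes described here were 10 brakes on cell division that are often read as signs of quiescence or dormancy. They were Cdkn1a and Cdkn1b, which encode the inhibitors p21 and p27, Cdkn2a, Cdkn2b, Cdkn2c and Cdkn2d of the INK4 family, Rb1, Rbl1 and Rbl2, which encode the pocket proteins, and the antiproliferative gene Btg2. The genes were chosen by name, and each was represented by its brightest probe set, the one with the highest mean over all arrays. They were 10 of the 17097 genes that the array's annotation names by a single symbol, and they had 16 probe sets between them. All 10 passed the filter on low signals, as did 12595 genes in all.

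RNA was measured on 12 arrays of colon adenoma cells from 3 mice, sorted by Mex3a and Lgr5 status. Each mouse gave 1 array for each of 4 populations, namely Mex3a+ cells that were Lgr5+ or Lgr5- and Mex3a- cells that were Lgr5+ or Lgr5-. Each array held a pool of several adenomas of a mouse, of 500 sorted cells in mouse MKL358 and of 2000 in MKL347 and in MKL367. All mice carried the label ki/+, and neither the allele behind it nor the way in which Mex3a and Lgr5 status was read is explained. No age, treatment or time point was given, and no normal colon was among the samples, so every comparison lay within adenomas. Lgr5 is a receptor known from intestinal stem cells, and the Mex3a protein binds RNA.

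The 10 genes act at the gate between G1 and S phase. Cyclin D with Cdk4 or Cdk6, and then cyclin E with Cdk2, phosphorylate the pocket proteins, which otherwise hold E2F factors on their target genes and keep these silent. INK4 proteins block Cdk4 and Cdk6, p21 and p27 act mainly on cyclin-bound Cdk2, and p21 is a transcriptional target of p53. In the intestine p21 and p27 are known to mark cells that leave the cycle as they differentiate, while high levels of CDK inhibitors have also been used to describe quiescent stem cells.

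The values were log2 signals, and differences between populations are given on that scale. Array medians lay between 4.86 and 4.92, and across probe sets the correlation within a population was 0.984 to 0.994. Averaged over both states of the other marker, each sorted marker followed its own label. Mex3a averaged 6.96 in Mex3a+ and 6.28 in Mex3a- arrays, a difference of 0.69 (SE 0.12, limma adjusted p = 0.00162), and Lgr5 averaged 8.20 in Lgr5+ and 6.65 in Lgr5- arrays, a difference of 1.55 (SE 0.14, limma adjusted p = 0.000872). Within Lgr5+ cells the Mex3a difference was 0.58, not called without the pairing of arrays by mouse (limma adjusted p = 0.0579) and called with it (0.0085). Within Lgr5- cells it was 0.79 and was called in both fits. A second Mex3a probe set gave 0.12 in Lgr5+ cells, called in neither fit, and 0.56 in Lgr5- cells, called in both. Lgr5 was also higher in Mex3a+ than in Mex3a- arrays, by 0.82 (SE 0.14, limma adjusted p = 0.00139). Among Lgr5- cells this difference was 1.27 (7.29 against 6.01, limma adjusted p = 0.00214). Among Lgr5+ cells it was 0.36 and was not called (limma adjusted p = 0.318). Comparisons by Mex3a status thus also differed in Lgr5 level, whose part in them was not tested. The epithelial list, with Epcam and keratin genes, averaged between 9.99 and 10.27 on Mex3a+ arrays and between 10.50 and 10.84 on Mex3a- arrays. None of its 8 genes was below the filter. The Mex3a- Lgr5+ array of mouse MKL367 stood apart in the fibroblast and smooth muscle list, with a mean of 6.36 against 5.17 to 5.58 on the other 11 arrays. In such sorted pools, fewer cells of a type and less RNA per cell cannot be told apart.

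Without the pairing of arrays by mouse, limma called 0 of the 10 genes by Mex3a status at an adjusted p under 0.05, where 27.2% of all genes were called. At an unadjusted p under 0.05 it found 2, both lower in Mex3a+ cells, against 38.4% of all genes. With the mouse as a block it called 3 (Cdkn1a, Cdkn1b and Cdkn2b), all lower in Mex3a+ cells, against 41.2% of all genes called and 25.3% called lower. At an unadjusted p under 0.05 the blocked fit found 5, of which 3 were lower and 2 higher, against 48.7% of all genes. Cdkn2a, whose limit is given below, was among the higher ones. Without the block the shares of the 10 genes were thus below the background. With the block they were near it, and for so few genes no departure from it is read. The median difference of the 10 genes was -0.10, against -0.01 over all genes, and 7 of the 10 had a lower mean in Mex3a+ cells. Levels also differed between mice, as the plot by population and mouse shows: mouse MKL358, whose arrays held 500 cells, had the highest Cdkn1a and Btg2 in all 4 populations. Only that mouse had 500 cells per array, so cell number and other differences between the mice cannot be told apart. The immediate early list, given below, was also highest in that mouse.

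**Figure D1:**
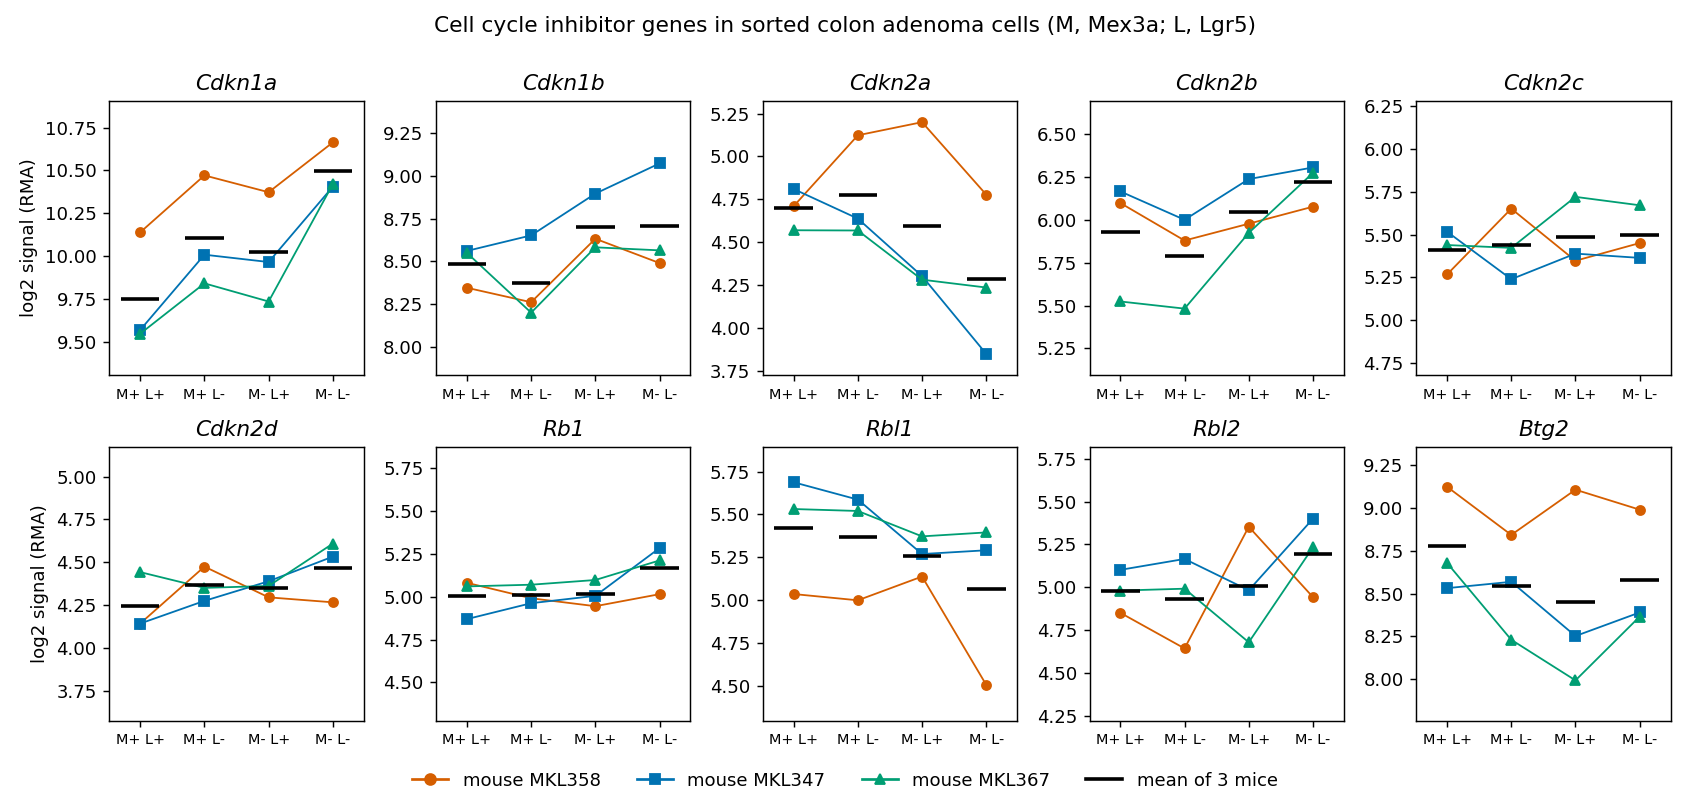
Log2 signal of the 10 genes in each population (M, Mex3a; L, Lgr5), with 1 line per mouse and black bars for the mean of 3 mice; every panel spans the same log2 range. All 3 lines of Cdkn1a start lowest in the Mex3a+ Lgr5+ and end highest in the Mex3a- Lgr5- population, with mouse MKL358 on top throughout.

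Cdkn1a, the gene of p21, had the lowest signal in cells that carried both markers and the highest in cells that carried neither, in each of the 3 mice. Mex3a+ Lgr5+ cells had log2 signals of 10.14, 9.57 and 9.55 in mice MKL358, MKL347 and MKL367, and Mex3a+ Lgr5- cells 10.47, 10.01 and 9.84. In the same order of mice, Mex3a- Lgr5+ cells had 10.37, 9.96 and 9.73, and Mex3a- Lgr5- cells 10.66, 10.40 and 10.42. Within every mouse the order of populations was the same, with Mex3a+ Lgr5+ lowest, then Mex3a- Lgr5+, then Mex3a+ Lgr5-, and Mex3a- Lgr5- highest. Across mice the populations overlapped, since mouse MKL358 lay above the other mice in every population. The means of 9.75 ± 0.34, 10.02 ± 0.32, 10.11 ± 0.33 and 10.50 ± 0.15 in that order (SD, n = 3 mice each) show the 3 lowest populations within 1 SD of their neighbours. The highest lay 0.39 above the next one, and these overlapped too, since Mex3a+ Lgr5- cells of mouse MKL358 had 10.47 and Mex3a- Lgr5- cells of mouse MKL347 had 10.40.

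The Mex3a+ level of Cdkn1a was lower than the Mex3a- level in all 6 within-mouse pairs, by 0.33 on average, or 1.26-fold (9.93 against 10.26, 95% interval -0.65 to -0.01 without the block). Without the block the limma adjusted p was 0.114 (SE 0.14), and with the mouse as a block it was 0.00034 (SE 0.05, interval -0.45 to -0.21). The blocked call was kept without any single mouse or array. Without the block, the gene was called when mouse MKL358 was left out (-0.39, limma adjusted p = 0.00474), and when its Mex3a+ Lgr5+ array (-0.43, 0.0342) or its Mex3a+ Lgr5- array (-0.42, 0.0444) was. Array weights, which count arrays that depart from their population less, gave -0.36 with an adjusted p of 0.0364.

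Within Lgr5+ cells Cdkn1a was lower in Mex3a+ than in Mex3a- cells by 0.40 in mouse MKL347, 0.23 in mouse MKL358 and 0.19 in mouse MKL367. Within Lgr5- cells it was lower by 0.40, 0.19 and 0.58 in these mice. With the block both differences were called, at -0.27 in Lgr5+ cells (SE 0.08, limma adjusted p = 0.0213) and -0.39 in Lgr5- cells (SE 0.08, limma adjusted p = 0.00191). Without it neither was, with adjusted p of 0.487 and 0.22. The call in Lgr5+ cells was lost without mouse MKL347 (-0.21, adjusted p = 0.239), without its Mex3a+ (-0.22, 0.112) or its Mex3a- (-0.24, 0.0982) Lgr5+ array, without MKL358 in Mex3a- Lgr5+ cells (-0.25, 0.0841), and without MKL367 in Mex3a+ Lgr5+ cells (-0.28, 0.0603). It was also lost with the mean of the probe sets (-0.22, adjusted p = 0.0795) and without the intensity trend (adjusted p = 0.0558). Without the block, the difference in Lgr5+ cells ranged from -0.47 without MKL358 in Mex3a+ Lgr5+ cells to -0.10 without MKL358 in Mex3a- Lgr5+ cells. The call in Lgr5- cells was kept without any single mouse or array, and without the block and mouse MKL358 it was also made (-0.49, 0.0145).

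RefSeq lists a pair of promoter windows for Cdkn1a, and they are printed here because p21 is a textbook p53 target and the one of the 10 genes called by both Mex3a and Lgr5 status with the block. Each window runs from 250 bases before to 50 bases after a transcription start of build GRCm38.p6. The first is chr17:29090729-29091028 and the second chr17:29093519-29093818, both on the plus strand. Capitals in the first mark a pair of matches to the p53 half-site letters RRRCWWGYYY, whose first bases lie 73 and 51 bases before the start. The bases tgacatgttc that directly follow the second match depart from these letters at their first base only and were left in lower case. The marked pair is thus a result of the letters used, and the p53 site itself was not determined. In the second window capitals mark the GC boxes (GGGCGG) at 104 and 46 bases before the start.
Cdkn1a first start: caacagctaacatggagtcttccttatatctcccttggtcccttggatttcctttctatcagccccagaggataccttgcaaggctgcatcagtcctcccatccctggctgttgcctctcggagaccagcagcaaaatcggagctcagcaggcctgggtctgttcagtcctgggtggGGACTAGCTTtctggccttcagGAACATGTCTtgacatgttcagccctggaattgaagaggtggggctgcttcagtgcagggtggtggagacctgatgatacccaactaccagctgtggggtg
Cdkn1a second start: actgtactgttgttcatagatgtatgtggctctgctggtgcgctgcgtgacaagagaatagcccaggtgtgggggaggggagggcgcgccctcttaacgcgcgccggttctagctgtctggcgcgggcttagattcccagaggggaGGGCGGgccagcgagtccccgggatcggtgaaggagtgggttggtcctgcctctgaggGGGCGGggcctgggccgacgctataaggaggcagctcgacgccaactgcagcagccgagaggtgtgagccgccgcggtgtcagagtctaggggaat
Counting both strands, a pair of exact matches to these p53 letters, at most 13 bases apart, was found in 24 of 32851 promoter windows (0.0731%). Sites that depart from the letters were not counted. The GC box was in 35.7% of windows and in 10 of the 12 windows of the described genes, of which 9 had a window. A match of letters is a description and not evidence of binding.

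Cdkn1b, the gene of p27, also had a lower mean in Mex3a+ cells, and by Lgr5 status its difference was 0.05 (limma adjusted p with the block 0.791). Mex3a+ Lgr5+ cells had 8.35, 8.56 and 8.55 in mice MKL358, MKL347 and MKL367, and Mex3a+ Lgr5- cells had 8.26, 8.65 and 8.20. Mex3a- Lgr5+ cells had 8.63, 8.90 and 8.58, and Mex3a- Lgr5- cells 8.49, 9.07 and 8.56. Each mouse was lower in its Mex3a+ than in its Mex3a- cells in both Lgr5 states, while the populations overlapped across mice. The mean difference was -0.28 (8.43 against 8.71, 1.21-fold lower). Its limma adjusted p was 0.105 without the block (SE 0.12) and 0.00505 with it (SE 0.07), and leaving out any mouse or array kept the blocked call. Without the block it was called when MKL347 was left out of the Mex3a+ Lgr5- cells (-0.35, 0.0476). With the block, the difference was -0.34 in Lgr5- cells (SE 0.09, limma adjusted p = 0.0158), and -0.22 in Lgr5+ cells was not called (0.122). The call in Lgr5- cells was lost without mouse MKL347 (-0.30, adjusted p = 0.0823) or MKL367 (-0.32, 0.0725), without MKL347 in Mex3a- Lgr5- cells alone (-0.25, 0.0978) or MKL367 in Mex3a+ Lgr5- cells alone (-0.29, 0.0845), and after quantile normalization (-0.21, 0.0994).

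The RefSeq promoter windows of Cdkn1b and of Cdkn2b, the other genes called by Mex3a status with the block, are printed for comparison with those of Cdkn1a. That of Cdkn1b is chr6:134920151-134920450 on the plus strand and that of Cdkn2b is chr4:89310983-89311282 on the minus strand, both in GRCm38.p6 and written 5′ to 3′. Capitals mark GC boxes and, in Cdkn2b, also the cAMP response element TGACGTCA.
Cdkn1b: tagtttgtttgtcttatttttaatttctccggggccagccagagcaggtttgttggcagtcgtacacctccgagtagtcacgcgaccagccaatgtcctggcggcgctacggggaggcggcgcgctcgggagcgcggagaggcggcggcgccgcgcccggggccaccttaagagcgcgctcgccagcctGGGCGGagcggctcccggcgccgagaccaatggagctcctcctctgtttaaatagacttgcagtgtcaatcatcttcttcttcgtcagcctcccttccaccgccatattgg
Cdkn2b: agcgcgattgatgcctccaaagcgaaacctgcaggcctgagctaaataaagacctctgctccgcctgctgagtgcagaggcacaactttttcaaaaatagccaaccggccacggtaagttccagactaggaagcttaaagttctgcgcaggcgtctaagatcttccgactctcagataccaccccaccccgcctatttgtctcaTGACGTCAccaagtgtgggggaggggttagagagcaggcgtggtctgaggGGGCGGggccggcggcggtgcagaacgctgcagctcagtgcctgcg
The response element begins 46 bases before the start of Cdkn2b. It was in 1.79% of all windows, and among the described genes the window of Btg2 held it too. No window of these genes held the FoxO letters GTAAACA (3.65% of all windows) or the TCF letters CTTTGAT (3.73%). The E2F letters TTTNGCGC (1.38% of all windows) were found for Cdkn2a and for Rbl1. Absence of the letters says nothing of the factors.

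Of the INK4 genes, Cdkn2b, which encodes p15, had a lower mean in Mex3a+ cells, with a call in the blocked fit. Its signal in Mex3a+ Lgr5+ cells was 6.10, 6.17 and 5.52 in mice MKL358, MKL347 and MKL367, and in Mex3a+ Lgr5- cells 5.88, 6.0 and 5.48. In Mex3a- Lgr5+ cells it was 5.98, 6.24 and 5.93, and in Mex3a- Lgr5- cells 6.08, 6.31 and 6.28. The Mex3a+ value was the lower in 5 of 6 within-mouse pairs, and the lowest arrays were both Mex3a+ arrays of mouse MKL367. Over both Lgr5 states the difference was -0.27 (SE 0.13, limma adjusted p = 0.139), and with the block the adjusted p was 0.0321. That call was lost without mouse MKL347 (-0.32, adjusted p = 0.095) or MKL367 (-0.11, 0.388). It was also lost without MKL347 in Mex3a+ Lgr5- or in Mex3a- Lgr5+ cells, and without any of the 4 arrays of MKL367 (adjusted p 0.0541 to 0.0961). In Lgr5- cells the difference was -0.43 (SE 0.18, adjusted p = 0.128), with an adjusted p of 0.025 with the block. That call was lost without mouse MKL347 (-0.50, 0.0864) or MKL367 (-0.25, 0.205), without MKL347 in Mex3a+ Lgr5- cells (-0.45, 0.0593), and without either Lgr5- array of mouse MKL367 (-0.36 and -0.27, 0.119 and 0.142).

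Cdkn2a encodes p16 and, from another reading frame, p19Arf, and its probe set was not assigned to either product here. It was dim, above the filter on 8 of 12 arrays. All 6 Mex3a+ arrays passed it, at 4.71, 4.81 and 4.57 in Lgr5+ cells and 5.12, 4.64 and 4.57 in Lgr5- cells of mice MKL358, MKL347 and MKL367. Of the Mex3a- arrays only those of mouse MKL358 passed, with 5.20, 4.30 and 4.28 in Lgr5+ cells and 4.78, 3.85 and 4.23 in Lgr5- cells. The measured means were 4.74 in Mex3a+ and 4.44 in Mex3a- cells. Cdkn2a met the filter of 3 arrays through the Mex3a+ cells alone, so its differences by Mex3a status are descriptions and no test is read from them. The measured difference of 0.30 was 0.12 without mouse MKL347 and 0.48 without mouse MKL358. Among Lgr5+ cells, mouse MKL358 had the opposite sign, with 4.71 in Mex3a+ and 5.20 in Mex3a- cells. Cdkn2a and Cdkn2b are neighbouring genes on chromosome 4.

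Cdkn2c, the gene of p18, lay between 5.24 and 5.72 on all arrays, and its difference by Mex3a status was -0.07 (SE 0.10, limma adjusted p = 0.659, 95% interval -0.28 to 0.15). Cdkn2d, the gene of p19 of the INK4 family, was above the filter on 4 of 12 arrays, with signals between 4.14 and 4.61. Its difference was -0.10 (SE 0.08, limma adjusted p = 0.358, 95% interval -0.28 to 0.07). Neither was called with the block. The sign differed between mice for both genes.

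**Figure D2:**
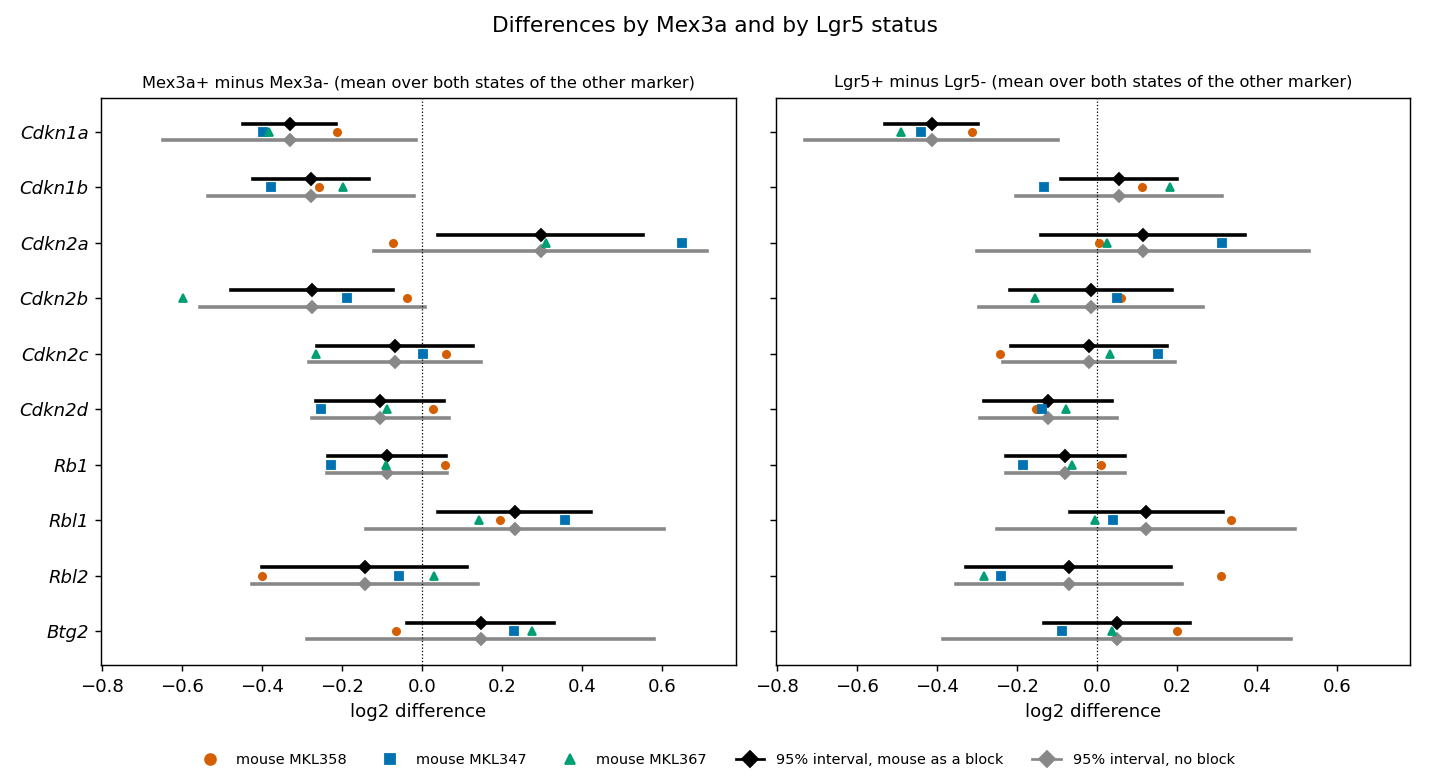
Log2 differences of the 10 genes, Mex3a+ minus Mex3a- on the left and Lgr5+ minus Lgr5- on the right, each averaged over both states of the other marker; coloured points are mice and bars are 95% intervals with the mouse as a block (black) and without (grey). Cdkn1a was below 0 in all 3 mice on both sides, Cdkn1b and Cdkn2b on the left only, and Cdkn2d on the right only. Rbl1 on the left and Cdkn2a on the right were above 0 in all 3 mice.

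The pocket protein genes were not called in any comparison by either fit. Rb1 stayed between 4.87 and 5.28, with a Mex3a difference of -0.09 (SE 0.07, limma adjusted p = 0.378). Rbl2, the gene of p130, the pocket protein best known from resting cells, lay between 4.64 and 5.40 and had a difference of -0.14 (SE 0.13, limma adjusted p = 0.45). Rbl1, the gene of p107, which is an E2F target in cycling cells, had 5.04, 5.69 and 5.53 in Mex3a+ Lgr5+ cells and 5.0, 5.59 and 5.52 in Mex3a+ Lgr5- cells of mice MKL358, MKL347 and MKL367. It had 5.14, 5.27 and 5.37 in Mex3a- Lgr5+ cells and 4.50, 5.29 and 5.39 in Mex3a- Lgr5- cells. It was higher in Mex3a+ cells in 5 of 6 within-mouse pairs, with a mean difference of 0.23 (SE 0.17, limma adjusted p = 0.349, with the block 0.0518). Without the block it was called when mouse MKL358 was left out (0.25, 0.0447), and was 0.092 (adjusted p = 0.655) when only the Mex3a- Lgr5- array of that mouse was.

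Btg2, which encodes an antiproliferative protein that recruits the CCR4-NOT deadenylase and is induced by p53 and by growth factors, differed more between mice than between populations. In Mex3a+ Lgr5+ cells it had 9.12, 8.53 and 8.68 in mice MKL358, MKL347 and MKL367, and in Mex3a+ Lgr5- cells 8.84, 8.57 and 8.23. In Mex3a- Lgr5+ cells it had 9.11, 8.25 and 7.99, and in Mex3a- Lgr5- cells 8.99, 8.39 and 8.37. Over its 4 arrays mouse MKL358 averaged 9.02, mouse MKL347 8.44 and mouse MKL367 8.32, while the population means lay between 8.45 and 8.78. The Mex3a difference was 0.15 (SE 0.20, limma adjusted p = 0.635, with the block 0.187), with all 3 mice higher in Mex3a+ cells among Lgr5+ cells (0.33, with the block 0.0685) and 1 of 3 among Lgr5- cells (-0.03, with the block 0.851). The lowest value, 7.99, came from the array that stood apart in fibroblast and smooth muscle markers, whose part in it was not tested. Without that array, and without the block, the difference in Lgr5+ cells was 0.099 and the average one 0.032. Without MKL358 in Mex3a- Lgr5+ cells they were 0.66 and 0.31.

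A second probe set above the filter existed for 4 of the genes. For Cdkn1a it gave -0.32 by Mex3a status and -0.51 by Lgr5 status, with blocked adjusted p over all probe sets of 0.00252 and 0.00373. In Lgr5+ cells it gave -0.17 by Mex3a status, which was not called with the block (0.25), where the brightest gave -0.27 and was (0.0225). For Cdkn1b it gave -0.39 by Mex3a status, which was called both without the block (limma adjusted p over probe sets 0.034) and with it (0.000902). With the block it was also called in Lgr5+ cells (-0.40, 0.0142), where the brightest was not (-0.22, 0.132). For Btg2 the second probe set gave 0.41 (limma adjusted p over probe sets 0.148, with the block 0.000289) where the brightest gave 0.15. It was called with the block in Lgr5+ cells (0.51, 0.00194) and in Lgr5- cells (0.31, 0.0221), where the brightest was not called and in Lgr5- cells had the opposite sign. For Rbl1 the second probe set gave -0.06 where the brightest gave 0.23. The average differences of the probe sets thus had opposite signs for Rbl1 and differed by over 1.5 times in size for Btg2. The second probe sets of Rb1 and Rbl2 were below the filter on all 12 arrays.

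**Figure D3:**
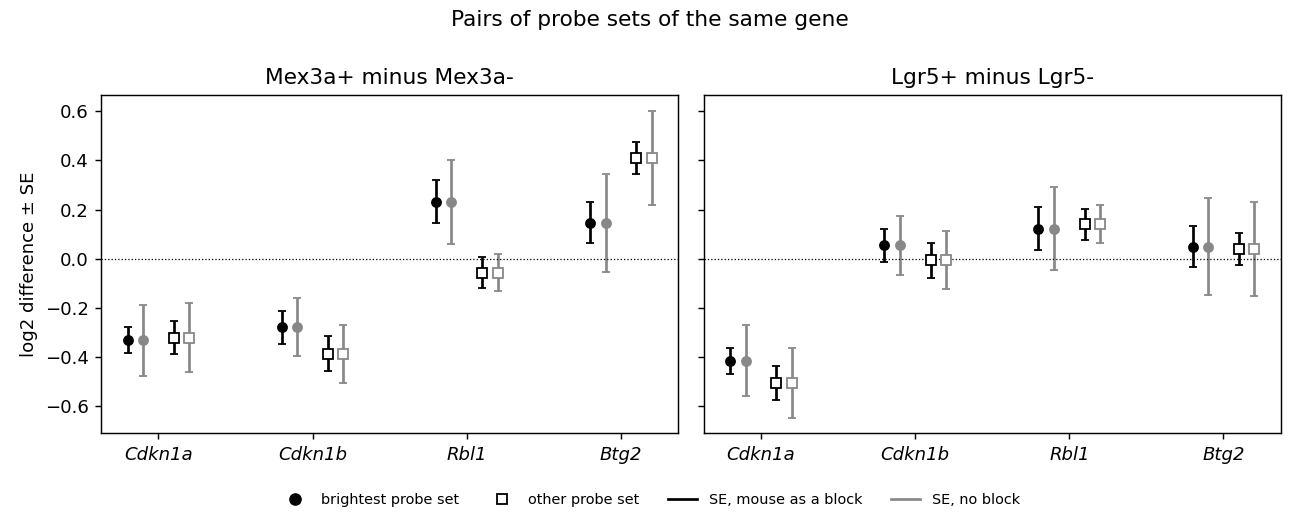
Log2 differences with standard errors for the 4 genes with a pair of probe sets above the filter, filled circles for the brightest and open squares for the other, black with the mouse as a block and grey without. The pairs of Cdkn1a and Cdkn1b lie on the same side by Mex3a status, while those of Rbl1 lie on opposite sides of 0.

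By Lgr5 status, limma without the block called 0 of the 10 genes, against 0.0397% of all genes, with 1 at an unadjusted p under 0.05, against 6.22% of all genes. With the block it called 1, Cdkn1a, against 1.8% of all genes and 0.627% called lower. Cdkn1a was lower in Lgr5+ cells in all 6 within-mouse pairs, with means of 9.89 in Lgr5+ and 10.30 in Lgr5- cells. The difference was -0.41 (1.33-fold lower, SE 0.14, limma adjusted p = 0.579), and with the block the adjusted p was 0.00302 (SE 0.05). That call was lost without mouse MKL347 (-0.40, adjusted p = 0.0623). By mouse, its difference in Mex3a+ cells was -0.44 in MKL347, -0.33 in MKL358 and -0.29 in MKL367, and in Mex3a- cells -0.44, -0.29 and -0.69. The other 9 genes had blocked adjusted p of at least 0.512.

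Among Mex3a- cells the Lgr5 difference of Cdkn1a was -0.47 (SE 0.20, limma adjusted p = 0.767, with the block 0.0108). It was the only one of the 10 genes called with the block there, against 1.62% of all genes and 0.81% called lower, and 0 were called without it, against 0.0318%, with 1 at an unadjusted p under 0.05, against 6.23%. The blocked call was lost without mouse MKL347 (-0.49, adjusted p = 0.0899) or MKL367 (-0.37, 0.099) and without MKL358 (-0.49, 0.0592) or MKL367 (-0.42, 0.0624) in Mex3a- Lgr5+ cells alone. Among Mex3a+ cells its difference was -0.36 (SE 0.20, limma adjusted p = 1, with the block 0.213). No gene of the 10 was called there in either fit, against 0% of all genes without the block and 0.0715% with it. At an unadjusted p under 0.05 there were 0 without the block, against 2.99% of all genes, and 1 with it, against 8.68%.

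For Mex3a status within one Lgr5 state, limma without the block called 0 of the 10 genes in Lgr5+ cells, against 8.01% of all genes, and 0 in Lgr5- cells, against 16.9%, with 0 and 1 at an unadjusted p under 0.05, against 22.7% and 31.3% of all genes. With the block it called 1 lower in Lgr5+ cells, against 22% of all genes and 13.2% called lower. In Lgr5- cells it called 4, against 31.9% of all genes, of which 1 was higher (10.8% of all genes) and 3 were lower (21.1%). The higher one was Cdkn2a, from whose test nothing is read. The interaction of both markers, which tests whether the Mex3a difference depends on Lgr5 status, called none of the 10 genes and 0% of all genes in both fits, with 0 of the 10 at an unadjusted p under 0.05 in either, against 2.85% of all genes without the block and 8.56% with it. For Cdkn1a the interaction was 0.12 (SE 0.29, limma adjusted p = 1, 95% interval -0.52 to 0.75), and -0.028 without the array of MKL367 that stood apart. The calls in Lgr5- cells were thus not shown to differ from Lgr5+ cells.

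Counts for other genes of the G1 gate by Mex3a status are read against all genes, of which 9.91% were called higher and 17.3% lower without the block, and 15.9% higher and 25.3% lower with it. Of 10 measured G1 cyclins and CDKs, limma called 1 higher and 0 lower, with 1 higher and 1 lower at an unadjusted p under 0.05, and with the block 2 were higher and 1 was lower. Cdk6, a partner of D-type cyclins and a target of INK4 proteins, was the one that was higher (0.52, SE 0.10, limma adjusted p = 0.00206). It was not called without mouse MKL367. Ccnd1, the gene of cyclin D1, had a difference of -0.18, called with the block only. Of 9 E2F and DP factors, 1 was lower, E2f2, an activating E2F (-0.90, SE 0.12, limma adjusted p = 0.000349), and 8 were not called. Of 5 other inhibitors of CDKs and mitotic entry, 1 was higher and 2 were lower, and with the block 2 were higher and 3 lower. Cdkn1c, which encodes p57, the remaining member of the CIP/KIP family of p21 and p27, was higher by 1.60 in Mex3a+ cells (9.40 against 7.80, SE 0.20, limma adjusted p = 0.000273). Cdkn3, a phosphatase gene that peaks in mitosis (-0.94, limma adjusted p = 0.000169), and Pkmyt1, an inhibitory kinase of Cdk1 (-0.50, 0.00154), were lower. The 3 genes of the CIP/KIP family thus did not share a sign by Mex3a status. Without mouse MKL358, 1 G1 gene and 2 E2F genes were lower. The G1 count was also 1 without MKL347 in Mex3a+ Lgr5+ cells, and the E2F count was also 2 without MKL358 in Mex3a- Lgr5- cells, without MKL347 in Mex3a+ Lgr5- cells, or with the block. Of the other inhibitors, 1 was lower without mouse MKL347, and 2 were higher without MKL347 in Mex3a- Lgr5- cells. The list of the MuvB core, whose complex represses cell cycle genes in resting cells, also held Mybl2, the gene of B-Myb, and Dyrk1a. Of its 6 measured genes limma called 0 without the block, with 2 lower at an unadjusted p under 0.05. Mybl2 had the smallest p there, so the counts are not of repressor genes alone. With the block 1 gene was higher and 3 were lower. Without MKL358 in Mex3a+ Lgr5+ or Mex3a- Lgr5- cells, MKL347 in Mex3a+ Lgr5- cells or MKL367 in Mex3a- Lgr5- cells, 1 was lower without the block. Of 11 ubiquitin ligase genes for p21 and p27, 1 was lower, Cdc20 (-0.48), and of 8 senescence genes 1, Hmgb2 (-0.34). The ligase count was 2 without MKL367 in Mex3a+ Lgr5+ cells, and 3 lower and 1 higher with the block. The senescence count was 0 without mouse MKL347, and 2 without mouse MKL358, without either of its Mex3a+ arrays or without MKL347 in Mex3a- Lgr5- cells. With the block, 1 senescence gene was higher and 2 were lower.

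Of 20 genes of p53 and its targets, 3 were higher, 1 was lower and 16 were not called, and with the block 5 were higher and 3 lower. The higher ones were Trp53inp1 (0.71), Pmaip1 (0.55) and Bbc3 (0.31), of which the last pair encode the cell death proteins Noxa and Puma, and the lower one was Perp (-0.91), which encodes a desmosome-associated membrane protein. The difference of Cdkn1a, itself a p53 target, had the sign of Perp. Of 11 Polycomb genes, whose products are known to silence the Ink4 locus, limma called 3 higher (Phc1 by 0.54, Cbx2 by 0.48 and Phc2 by 0.24) and 0 lower, also at an unadjusted p under 0.05, and with the block 6 were higher and 1 was lower. Without mouse MKL347 or without mouse MKL367 no Polycomb gene was called, and without mouse MKL358 there were 5 higher and 1 lower. Without mouse MKL347 only 1 p53 gene was higher.

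Genes used as signs of quiescence or dormancy did not share a sign. Of 15 FoxO, Mxd and Klf factors and related genes, 1 was higher, Zfp36l1 (0.66), and 4 were lower. Among the lower ones were Klf4 (-0.91), a factor of differentiated intestinal epithelium, Mxd1 (-0.88), an antagonist of Myc, and Txnip (-0.61), an inhibitor of glucose uptake. With the block 4 were higher and 5 lower. Without mouse MKL347 the counts were 0 higher and 1 lower, and the number higher was 2 without mouse MKL358, without its Mex3a+ Lgr5+ array, or without either Mex3a- array of mouse MKL367. Of the 17 tumour dormancy genes listed, 9 were measured, of which 3 were higher and 1 was lower, with the same counts with the block. Bmp7 (1.20), Bmpr2 (0.42) and Gas1 (0.37) were higher, and Gas6 (-0.94), the ligand of the Axl receptor family, was lower. Without mouse MKL347 none was called. The BTG and TOB list had a median of 0.14 over 9 genes, and with the block 2 were higher and 1 was lower. Without it 1 was called, Tob1, which was lower (-0.47, limma adjusted p = 0.0414) and was not called in 10 of 15 fits without a mouse or an array.

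Genes of the later cycle were lower or not called. Of 15 S phase genes 4 were lower, and with the block 10, with a list median of -0.25. Tk1, thymidine kinase, had -0.65 (SE 0.08, limma adjusted p = 0.000175), and Rrm2, a subunit of ribonucleotide reductase, -0.42. Leaving out mouse MKL347 or MKL367 left 1 S phase gene lower, and leaving out mouse MKL358 or its Mex3a- Lgr5- array left 11. Of 16 G2 and M phase genes 8 were lower, and with the block 12, with a list median of -0.35 against -0.01 over all genes. Birc5, the gene of survivin, had -0.51 (SE 0.06, limma adjusted p = 0.000215), and Ccna2, the gene of cyclin A2, had -0.50 (SE 0.07, 0.000329). No gene of either list was higher. Cdkn1a, Cdkn1b and these proliferation genes thus had the same sign by Mex3a status. By Lgr5 status, the genes of these role lists called with the block were Cdk6 (0.47) and Jun (0.32), an immediate early gene. Of all genes 1.8% were called there, and no departure of the lists from that share is read.

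**Figure D4:**
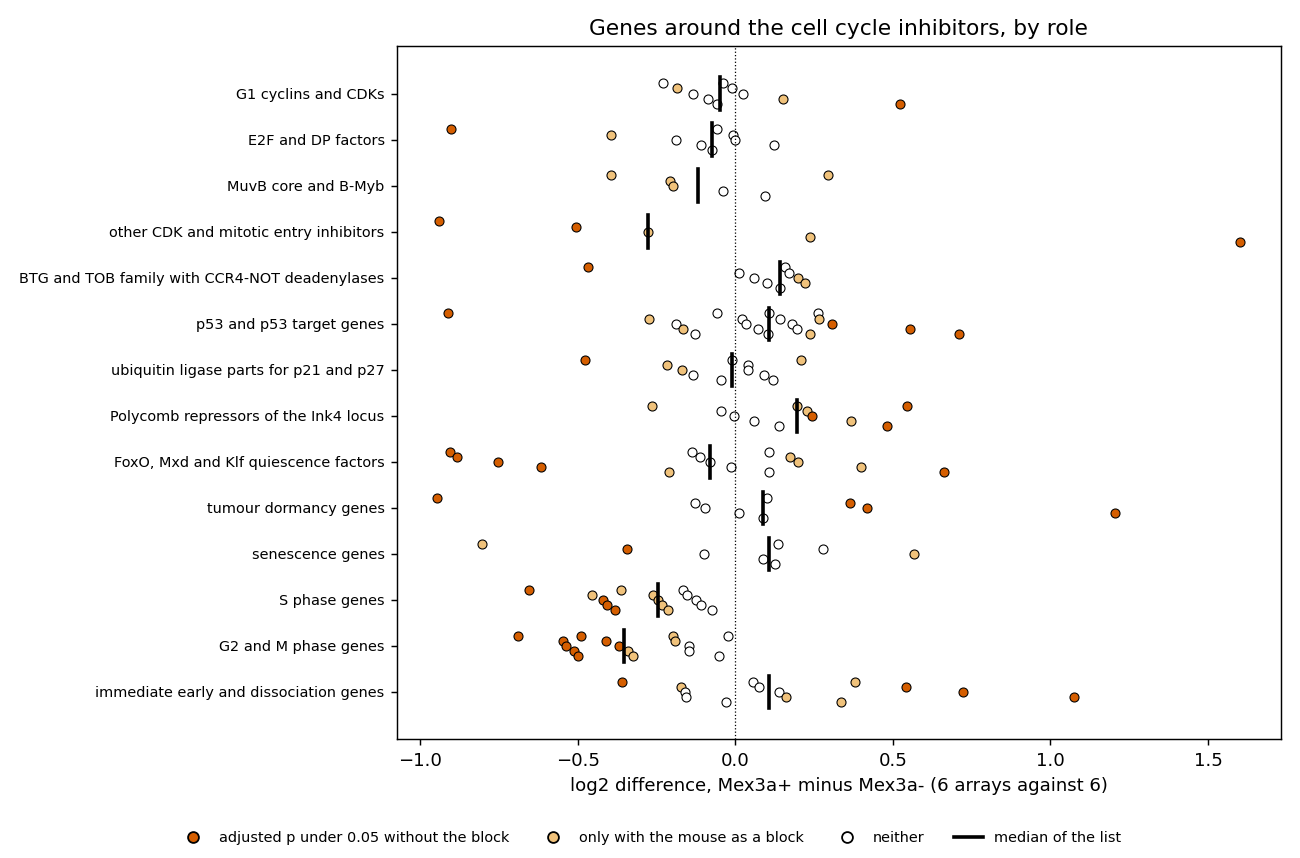
Log2 differences (Mex3a+ minus Mex3a-, 6 arrays against 6) of genes around the inhibitors, 1 point per gene, in rows by role, with a black bar at the median of each row. The S phase and G2 and M phase rows lie at or below 0, and the point farthest to the right is Cdkn1c at 1.60.

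Markers of mature epithelium moved with Mex3a status beside these differences. The colonocyte list had 7 of 7 measured genes lower in Mex3a+ cells, with array means of 4.83 to 5.92 on Mex3a+ arrays and 6.89 to 8.25 on Mex3a- arrays. The goblet cell list had 7 of 7 lower, with 6.88 to 7.76 on Mex3a+ and 8.71 to 10.19 on Mex3a- arrays. Of 7 measured crypt base stem cell markers, a list that includes the sorted marker Lgr5, 5 were higher, and with the block 6. Neutrophil markers had array means of 4.60 to 5.49 on Mex3a+ and 4.82 to 6.54 on Mex3a- arrays, with 1 of 6 measured genes lower, and with the block 4, Cxcr2 and Mmp8 being below the filter. The immediate early list, which responds to tissue dissociation, ranged from 8.44 to 9.13 on Mex3a+ arrays and from 8.24 to 8.97 on Mex3a- arrays, with Jun (0.72), Atf3 (1.07) and Egr1 (0.54) higher and Hspa1b (-0.36) lower of 14 genes. Hspa1b was not called in 10 of 15 fits without a mouse or an array. With the block 6 were higher and 2 lower. By mouse, the immediate early list ranged from 8.80 to 9.13 in MKL358, above the 8.24 to 8.65 of MKL347 and MKL367. The part of these cell types and of dissociation in the levels of Cdkn1a, Cdkn1b, Cdkn2b and Btg2 was not tested.

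Across the 12 arrays, the genes whose signal was most like that of Cdkn1a were Lpcat4 (Pearson r = 0.928), Krt36 (0.916) and Hbegf (0.913). For Cdkn1b they were 4833439L19Rik (0.970), Tmem18 (0.960) and Epsti1 (0.939), and for Cdkn2b Cnn2 (0.936), Idh1 (0.921) and Nars (0.908). These are descriptions over 12 arrays that share mice and populations, chosen as the highest among 12595 genes. Hbegf and Krt36 had larger Mex3a differences than Cdkn1a, at -1.03 and -0.98.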

How the data were processed

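The deposited values were log2 signals, made by the authors with RMA per the submitters' processing notes; which software ran it is not given in the sources used here. Per the labels, 25 ng of RNA was amplified and 8 µg of cDNA labelled. The number of arrays limits the precision.

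GEO's platform annotation gives 1 symbol to 28898 of 45141 probe sets, several to 551 and none to 15692, controls included. A gene was its brightest probe set with 1 symbol, kept above the 40th percentile of all values (4.40, log2) on at least 3 arrays. Fits used limma 3.58.1 (R 4.3.3) and 1 mean for each population over 12 arrays, with an intensity trend, 2-sided tests and Benjamini-Hochberg adjustment over 12595 genes; calls had an adjusted p under 0.05. Errors are limma's standard errors. The main design had no block. The mouse number in the sample titles pairs arrays of the same animal: deviations from the population means correlated at 0.349 to 0.694 within a mouse (18 pairs of arrays) and at -0.691 to 0.152 between mice (48 pairs). Such deviations cancel over the 3 mice of each population, which by construction lowers the correlations between mice. Because of the pairing, blocked values stand beside the unblocked ones. The fit was tested on simulated data.

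The members and gene lists were chosen with earlier results of these data known. Named genes were the members, both sorted markers and, of each list, those among the 4 smallest p. Alternatives were the block, other filters, quantile normalization, median centring, the mean of probe sets, each probe set alone, array weights, no trend, and fits without single mice or arrays; the block combined with these was added after seeing the data. Promoters came from RefSeq (GRCm38.p6). Rb1 is named without a window. Figures used matplotlib 3.10.9.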

Additional observations from a re-analysis of the deposited data

Results flagged for a closer look

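The difference of Cdkn2b by Lgr5 status had opposite signs in Mex3a+ and in Mex3a- cells, in every mouse. Among Mex3a+ cells it was higher in Lgr5+ than in Lgr5- cells in all 3 mice, by 0.14 on average, and among Mex3a- cells it was lower in all 3, with a mean difference of -0.17. The difference between these effects was 0.31 (0.3148, SE 0.26), and limma's interaction test gave an unadjusted p of 0.245 and an adjusted p of 1, or 0.673 with the mouse as a block. The difference between the Mex3a states thus did not pass the test.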

How the results depend on the processing

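Of 1241 values of single members under alternatives, 1126 kept their direction and side of the threshold, 56 changed sign, 38 lost a call and 21 gained one. The number of members called by Mex3a status was 0, and became 1 with the mean of probe sets, 2 with array weights, 3 with the replicate block, and 0 to 3 without a mouse or array. The block gave 1 by Lgr5 status, 1 for Mex3a in Lgr5+ cells, 4 for Mex3a in Lgr5- cells and 1 for Lgr5 in Mex3a- cells. Without a mouse or array, Mex3a in Lgr5- cells gave 0 to 2. With the mouse kept as a block, Mex3a status gave 5 with array weights and 2 to 6 without a mouse or array, Lgr5 status 0 to 1, and Lgr5 in Mex3a- cells 0 to 1. Mex3a in Lgr5+ cells with the block gave 2 with quantile normalization, the mean of probe sets or array weights, 0 without the trend and 0 to 2 without a mouse or array. Mex3a in Lgr5- cells with the block gave 2 with quantile normalization and 1 to 6 without a mouse or array. Counts in this section include Cdkn2a where it was called, although nothing is read from its tests by Mex3a status. It was called without the block when mouse MKL358 was left out, by Mex3a status and for Mex3a in Lgr5- cells. With the block it was among those called for Mex3a in Lgr5- cells. Over all genes, 27.2% were called by Mex3a status without the block and 41.2% with it. The share of all genes called with array weights or without a mouse or array is not given here. Counts of members under those settings are thus not read as a departure from all genes. The cause of the shifts in the number of members called was not tested.

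Sign changes concerned values that were called neither with nor without the block in the reported settings. In Lgr5+ cells the Mex3a difference of Rbl1 was -0.014 with the mean of probe sets, and that of Rbl2 0.044 with it and 0.0605 with array weights. In Lgr5- cells that of Btg2 was 0.10 with quantile normalization and 0.14 with the mean of probe sets. Without a mouse or array, Cdkn2c ranged from -0.13 to 0.031 by Mex3a status. By Lgr5 status Cdkn1b ranged from -0.0102 to 0.15, Cdkn2a from -0.038 to 0.24, Cdkn2b from -0.092 to 0.086, Cdkn2c from -0.11 to 0.092, Rbl1 from -0.017 to 0.22, Rbl2 from -0.26 to 0.034 and Btg2 from -0.11 to 0.16. Among Lgr5+ cells the Mex3a difference ranged from -0.10 to 0.41 for Cdkn2a, -0.24 to 0.086 for Cdkn2b, -0.18 to 0.0396 for Cdkn2c, -0.0865 to 0.055 for Rb1 and -0.19 to 0.21 for Rbl2. Among Lgr5- cells it ranged from -0.19 to 0.042 for Cdkn2c and -0.18 to 0.17 for Btg2. The interaction of Cdkn1a ranged from -0.077 to 0.30. The share of calls that were lower by Mex3a status was 63.5%, and 53.5% with quantile normalization and 70.7% with median centring.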
